A study of Rattus norvegicus with 7 samples.

Results

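Matrix metalloproteinases (MMPs) and the tissue inhibitors that block them (TIMPs) were examined in the rat meibomian gland, the lipid-secreting gland of the eyelid, after ultraviolet B (UVB) irradiation. The members were 10 genes chosen by name, with earlier results of these data known. They were Mmp2, Mmp3, Mmp9, Mmp10, Mmp12, Mmp13, Mmp14, Timp1, Timp2 and Timp3. Of them, 9 had a row among the 17246 genes, and Timp2 was not analysed here. The glands came from wild-type female Sprague-Dawley rats aged 3 months. The 3 UVB libraries came from rats whose upper lids had been irradiated with 300 mJ/cm2 in 5 min on each of 5 days, and the 4 control libraries from rats listed as receiving no treatment. The labels describe shaving of the lids in a protocol shared by all samples, and do not say whether the controls were shaved or how long after the last exposure the glands were taken.

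MMPs are zinc-dependent proteases that cleave collagen and other parts of the extracellular matrix. They are made as inactive proenzymes, are activated by other proteases or by each other, and are inhibited by TIMPs, which occupy the active site. In skin, MMP expression after ultraviolet light has long been linked to AP-1, a dimer of FOS and JUN proteins, and many MMP promoters carry an AP-1 site shortly before a TATA box.

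The members Mmp13, Mmp12, Mmp3 and Mmp10, lie in a cluster of 10 MMP genes on chromosome 8 in the rat assembly GRCr8. RefSeq promoters of that assembly were at hand for 7 of the 10 members. None was at hand for Mmp2, Mmp9 and Mmp14, so their promoters were not examined for motifs. The 120 bases before the start are shown for the clustered members and for Timp1, the member with the highest fold change in the test. These stretches were chosen because they hold the AP-1 motifs or, for Timp1, its variant. Capitals mark exact matches to TGAGTCA or its reverse complement TGACTCA (the AP-1 motif), to TGAGTAA (a 1-base variant of it), and to TATAAA on the gene's strand. The sequences run 5′ to 3′ on the gene's strand.

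Mmp13, GRCr8 chr8:12782709-12782828, plus strand: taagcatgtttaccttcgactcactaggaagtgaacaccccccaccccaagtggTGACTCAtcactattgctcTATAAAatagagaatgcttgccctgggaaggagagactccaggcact
Mmp12, GRCr8 chr8:12866532-12866651, plus strand: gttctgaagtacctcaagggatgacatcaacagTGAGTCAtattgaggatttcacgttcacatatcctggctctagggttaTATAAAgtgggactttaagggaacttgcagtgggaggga
Mmp3, GRCr8 chr8:12925161-12925280, plus strand: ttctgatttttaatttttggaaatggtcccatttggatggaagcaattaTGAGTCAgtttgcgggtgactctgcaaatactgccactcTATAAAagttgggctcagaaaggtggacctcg
Mmp10, GRCr8 chr8:12974587-12974706, plus strand: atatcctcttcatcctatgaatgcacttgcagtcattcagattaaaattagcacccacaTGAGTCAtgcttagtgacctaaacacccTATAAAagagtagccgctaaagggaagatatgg
Timp1, GRCr8 chrX:3771123-3771242, minus strand: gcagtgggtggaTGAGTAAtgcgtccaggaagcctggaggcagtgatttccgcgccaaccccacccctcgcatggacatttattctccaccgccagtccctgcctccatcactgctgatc

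The AP-1 motif began 66 bases before the start of Mmp13, 87 before Mmp12, 71 before Mmp3 and 61 before Mmp10. Each of the 4 also had TATAAA, beginning 47, 39, 32 and 33 bases before the start. In the cluster, Mmp1 (84 bases) and Mmp7 (80 bases) had the AP-1 motif too, while Mmp1b, Mmp8, Mmp27 and Mmp20 had no exact match to it within 250 bases. Over all 33469 promoters in the table, 4.05% had the AP-1 motif in the 250 bases before the start on either strand, 0.977% had it beginning 50 to 100 bases before the start, 8.06% had TATAAA, and 0.400% had both the AP-1 motif and TATAAA. Timp1 had the variant beginning 108 bases before its start; 2.38% of promoters had that variant on either strand. The variant also began 144 bases before the start of Mmp3, and a further TATAAA 196 bases before that of Mmp10, both outside the stretch shown. The promoter of Timp3 had none of these matches.

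**Figure D1:**
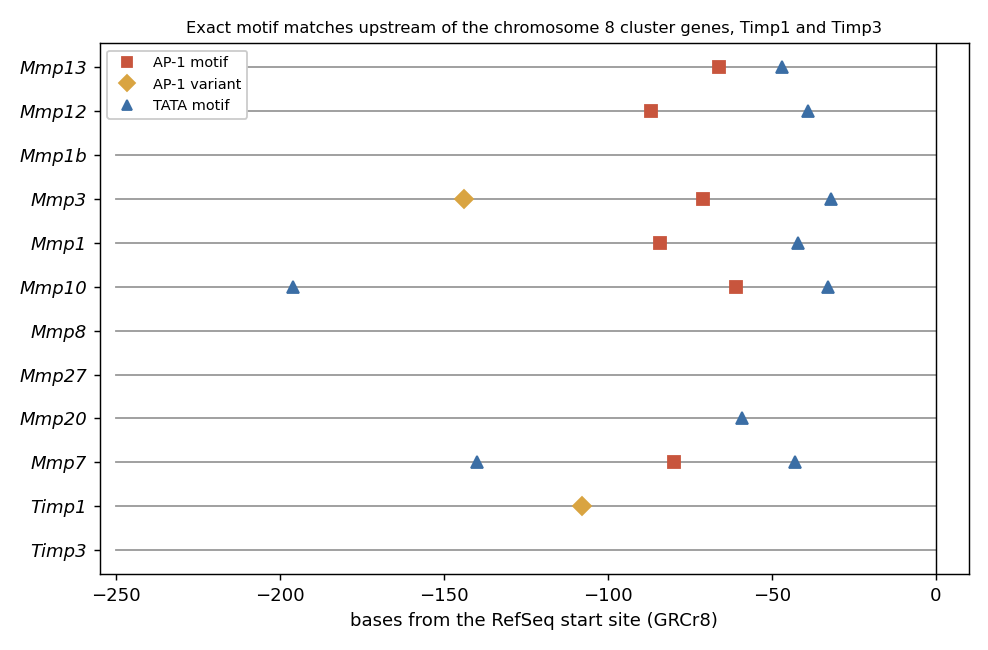
Positions of exact matches to the AP-1 motif (squares), its 1-base variant (diamonds) and TATAAA (triangles) in the 250 bases before the RefSeq start site, for the 10 clustered MMP genes in chromosomal order and for Timp1 and Timp3; the horizontal axis is the distance in bases. The AP-1 motif lies 61 to 87 bases before the start in 6 of the clustered genes.

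Library totals ran from 20680237 to 28784941 counts. The 4 controls carry the letters a to d and the 3 UVB libraries a to c, which imply no pairing. Apart from traits shared by all and a replicate number, the labels give only the group of the animals, so p-values measure the spread between these samples. Of 13709 genes tested with edgeR, 13.0% had an adjusted p under 0.05 (6.30% higher and 6.74% lower after UVB), and the groups did not overlap for 26.6%.

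Of the 8 members that passed the filter on low counts, Timp1, Mmp9, Mmp13, Mmp2 and Mmp14 were higher after UVB and Timp3 was lower, while Mmp3 and Mmp12 did not pass the threshold; Mmp10 was too scarce to be tested. The shares called over all genes tested were 6.30% higher and 6.74% lower. Mmp9 passed the filter (about 10 counts, or 0.429 CPM, in at least 3 libraries) only through the UVB libraries, so it could be tested only because it was high there. Without it, 4 of 7 members were higher and 1 lower, with a median log2 fold change of 0.93 against -0.0058 over all genes tested. Because the members were chosen with earlier results of these data known, these counts and medians only describe them. On CPM every UVB library was above every control for 6 of the 8 members, Mmp9 included (12.8% of all genes), and below every control for 1 (13.8%); on TPM the first number was 5, since Mmp3 overlapped. In bulk tissue, a change in the number of cells of a type and a change of RNA per cell cannot be told apart.

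**Figure D2:**
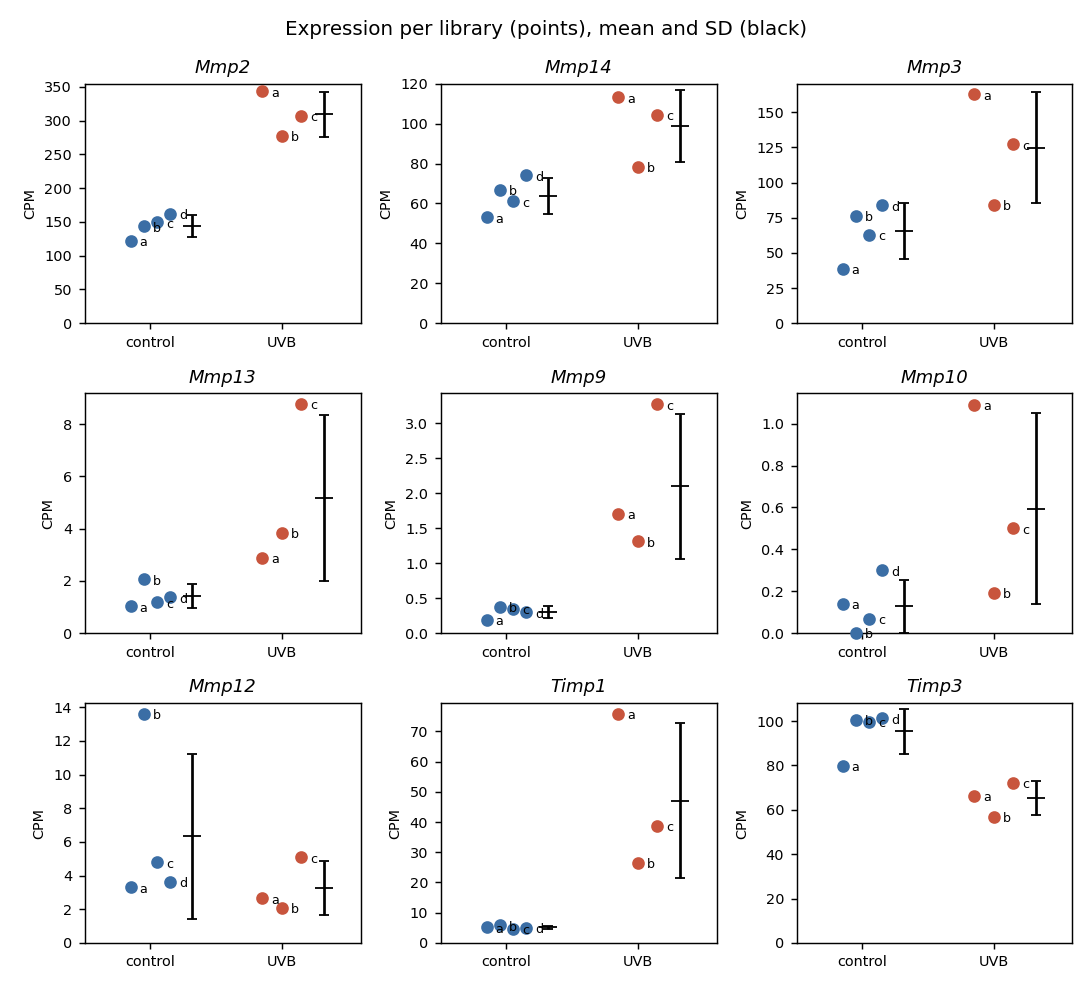
CPM (vertical axes, linear from 0) of the 9 members in each of the 4 control libraries (blue) and 3 UVB libraries (red), with letters naming the library and black bars giving mean and SD. Timp1 lies between 4.59 and 5.88 CPM in the controls and between 26.6 and 75.8 CPM after UVB, and Mmp12 is highest in control b.

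The gelatinases cleave denatured collagen and the type IV collagen of basement membranes. Mmp2 (gelatinase A, NCBI gene 81686) measured 121.9, 143.8, 149.3 and 161.8 CPM in the controls, in letter order, and 343.7, 277.3 and 307.3 CPM after UVB. The lowest UVB library was well above the highest control. The means were 144 ± 16.7 CPM (SD, n = 4) and 309 ± 33.3 CPM (SD, n = 3), and the rise came to a log2 fold change of 1.10 with an SE of 0.10 (adjusted p = 0.00107, edgeR), or 2.15-fold. Mmp2 had the smallest p of the members, and its log2 fold change stayed between 1.02 and 1.18 in 16 alternative fits, with a call in each.

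Mmp9 (gelatinase B, NCBI gene 81687), which neutrophils, macrophages and wounded epithelium are known to make, was scarce. It had 4, 8, 10 and 7 counts in the controls and 36, 34 and 85 counts after UVB, which is 0.187, 0.373, 0.345 and 0.299 CPM against 1.71, 1.32 and 3.27 CPM. The groups did not overlap, and UVB c was the highest library. The log2 fold change was 2.77 (95% interval 1.88 to 3.67, edgeR adjusted p = 0.00498). Without UVB c it was 2.29 (adjusted p = 0.0112). No control reached the filter on low counts, which Mmp9 passed through the UVB libraries. So few counts in the controls leave the size of the fold poorly resolved, as the interval shows.

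Mmp13 (collagenase-3, NCBI gene 171052) is the main collagenase of fibrillar collagen in rodents. It had 22, 44, 34 and 32 counts in the controls, or 1.03, 2.05, 1.17 and 1.37 CPM, and 61, 99 and 228 counts after UVB, or 2.89, 3.83 and 8.78 CPM. UVB c was again the highest library. The log2 fold change was 1.89 with an SE of 0.40 (adjusted p = 0.0208, edgeR), or 3.70-fold. Without UVB c the fold was 2.41 (adjusted p = 0.0376). Leaving out control c (adjusted p = 0.0628) or control d (0.0578) ended the call, as did log2(TPM + 1) with every gene above 0 (0.0551).

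The stromelysins cleave proteoglycans, laminin and fibronectin and are known to activate other proenzymes, that of MMP9 among them. Mmp3 (stromelysin-1, NCBI gene 171045) measured 38.8, 76.2, 62.9 and 84.0 CPM in the controls and 162.9, 84.4 and 127.1 CPM after UVB. UVB b was barely above control d on this scale, and on TPM it was just below it (78.95 against 79.06 TPM), so the groups overlapped there. The log2 fold change was 0.93 (SE 0.30, 95% interval 0.24 to 1.62) and did not pass the threshold (edgeR adjusted p = 0.0819). It lay between 0.69 and 1.15 in 16 alternatives, none of which passed (adjusted p 0.0502 to 0.202).

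Mmp10 (stromelysin-2, NCBI gene 117061) had 3.11, 0, 2.08 and 7.28 expected counts in the controls and 22.83, 5.24 and 12.54 after UVB. The groups overlapped, since UVB b was below control d, and the count of 0 in control b allows up to 3 counts. With no filter on low counts its log2 fold change was 2.16 (95% interval 0.42 to 3.89, edgeR adjusted p = 0.113). In each of the 6 libraries where the expected counts of Mmp3 and Mmp10 were not whole, they added up to a whole number (within 0.02), from 835 in control a to 3460 in UVB a. Their fractional parts therefore offset each other, and reads that fit both genes were divided between them, so the low level of Mmp10 is uncertain.

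Mmp12 (macrophage metalloelastase, NCBI gene 117033), which degrades elastin, measured 3.31, 13.6, 4.80 and 3.63 CPM in the controls and 2.65, 2.09 and 5.09 CPM after UVB. Control b stood far above the other controls, and the groups overlapped. Its log2 fold change of -0.94 had a 95% interval of -2.28 to 0.40 and did not pass (edgeR adjusted p = 0.319). Without control b it was -0.26 (adjusted p = 0.676). Its promoter, shown above, held an AP-1 and a TATA match, as did those of Mmp13, Mmp3 and Mmp10, at other distances from the start. Any link between these matches and the levels was not tested.

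Mmp14 (NCBI gene 81707) encodes a membrane-bound collagenase that activates the MMP2 proenzyme at the cell surface, with TIMP2 as an adaptor. It measured 53.0, 66.9, 61.2 and 74.1 CPM in the controls and 113.3, 78.4 and 104.5 CPM after UVB. UVB b was the lowest of the UVB libraries, as it was for Mmp3, and lay a little above control d. For Mmp14 the log2 fold change was 0.63 with an SE of 0.14 (adjusted p = 0.0272, edgeR), or 1.55-fold. The call was lost without control b (adjusted p = 0.0556), control c (0.0715), UVB a (0.0745) or UVB c (0.0671) and on log2(TPM + 1) with every gene above 0 (0.0542); the log2 fold change stayed between 0.52 and 0.78.

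The inhibitors moved in opposite directions. Timp1 (NCBI gene 116510), a soluble inhibitor of most secreted MMPs that is known to be inducible, measured 5.13, 5.88, 4.59 and 5.08 CPM in the controls and 75.8, 26.6 and 38.7 CPM after UVB. The controls were nearly equal and the UVB libraries differed among themselves, with UVB a highest. The log2 fold change was 3.18 (SE 0.35, 95% interval 2.36 to 4.00, edgeR adjusted p = 0.00382), or 9.09-fold. Without UVB a the fold was 6.32 (adjusted p = 0.00064), and the call held in 16 of 16 alternatives.

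Timp3 (NCBI gene 25358) encodes the inhibitor that binds to the matrix and also blocks ADAM17 and aggrecanases. It measured 80.0, 100.5, 99.6 and 101.3 CPM in the controls and 66.3, 56.9 and 72.2 CPM after UVB. Control a was lower than the other controls, and every UVB library was lower still. Its log2 fold change was -0.55 with an SE of 0.11 (adjusted p = 0.0129, edgeR), or 0.683-fold, and the call held in 16 of 16 alternatives. In GRCr8 Timp1 overlaps Syn1 and Timp3 overlaps Syn3, and the strand setting of the counting is not given; Syn1 had 2 to 8 counts per library and Syn3 11 to 42, against 110 to 1598 for Timp1 and 1399 to 2887 for Timp3.

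Levels of different genes were compared on the deposited TPM scale, which corrects for length. In the controls the order of mean TPM was Timp3 (95.2), Mmp2 (79.0), Mmp3 (62.2), Mmp14 (46.6), Timp1 (11.6), Mmp12 (6.21), Mmp13 (0.910), Mmp9 (0.172) and Mmp10 (0.132). Within each control Timp3 was above Mmp2, Mmp2 above Mmp3, Mmp14 above Timp1, Timp1 above Mmp12, Mmp12 above Mmp13 and Mmp13 above Mmp9. Mmp3 was above Mmp14 in 3 of 4 controls and Mmp9 above Mmp10 in 2 of 4. Between libraries the ranges of Timp3 (78.8 to 102 TPM) and Mmp2 (66.0 to 87.9 TPM) overlapped, as did those of Mmp2 and Mmp3 (36.4 to 79.1 TPM) and of Timp1 (10.5 to 13.2 TPM) and Mmp12 (3.28 to 13.2 TPM). After UVB the order was Mmp2 (170), Mmp3 (119), Timp1 (107), Mmp14 (72.4), Timp3 (65.4), Mmp13 (3.35), Mmp12 (3.20), Mmp9 (1.15) and Mmp10 (0.607). That order held within 2 of 3 UVB libraries for Mmp3 over Timp1, Mmp13 over Mmp12 and Mmp9 over Mmp10, and within 3 of 3 for the other neighbours. Timp1 rose from rank 7646 to rank 1331 among 17246 genes by mean TPM, and Mmp2 from 1792 to 818, while Timp3 went from 1473 to 2160.

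Mmp2, Mmp3 and Mmp14 together held 96.3% ± 2.13 (SD, n = 4) of the summed TPM of the 7 MMP members among control libraries and 97.7% ± 1.02 (SD, n = 3) with UVB. That summed level was 144.9, 213.9, 195.9 and 225.9 TPM in the controls and 440.7, 290.9 and 379.5 TPM after UVB, with no overlap. Of the summed TPM of Timp1 and Timp3, Timp1 made up 12.6%, 11.7%, 9.37% and 10.1% in the controls and 72.0%, 51.1% and 54.8% after UVB. Timp1 was thus the lesser of the pair in every control and the greater in every UVB library, and the ratio of Timp1 to Timp3 went from 0.123 ± 0.0185 (SD, n = 4) to 1.61 ± 0.836 (SD, n = 3). These are sums over chosen genes without Timp2, given with no test.

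The ratio of summed MMP to summed TIMP TPM overlapped between the groups. It was 1.61, 1.89, 1.75 and 2.02 in the controls and 1.83, 2.54 and 2.37 after UVB. The means were 1.82 ± 0.180 (SD, n = 4) and 2.25 ± 0.371 (SD, n = 3), and the difference of 0.429 was close to the spread among the UVB libraries. The overlap depended on the scale: on CPM, which is not corrected for length, the ratio was 2.57 to 3.06 in the controls and 4.42 to 5.36 after UVB, a difference of 2.14 with no overlap. On TPM without Mmp2 the difference was 0.115 (0.875 to 1.24 against 1.03 to 1.32). UVB a, which had the highest MMP sum, also had the highest TIMP sum (241.1 TPM) and the lowest ratio of its group. Measured against single inhibitors, the level of Mmp14 relative to Timp3 went from 0.490 ± 0.0366 (SD, n = 4) to 1.10 ± 0.124 (SD, n = 3). Relative to Timp1, Mmp14 went from 4.04 ± 0.629 (SD, n = 4) to 0.775 ± 0.256 (SD, n = 3). For Mmp14 the direction thus depended on the inhibitor chosen. The level of Mmp2 relative to Timp1 went from 6.87 ± 1.16 (SD, n = 4) to 1.86 ± 0.729 (SD, n = 3).

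**Figure D3:**
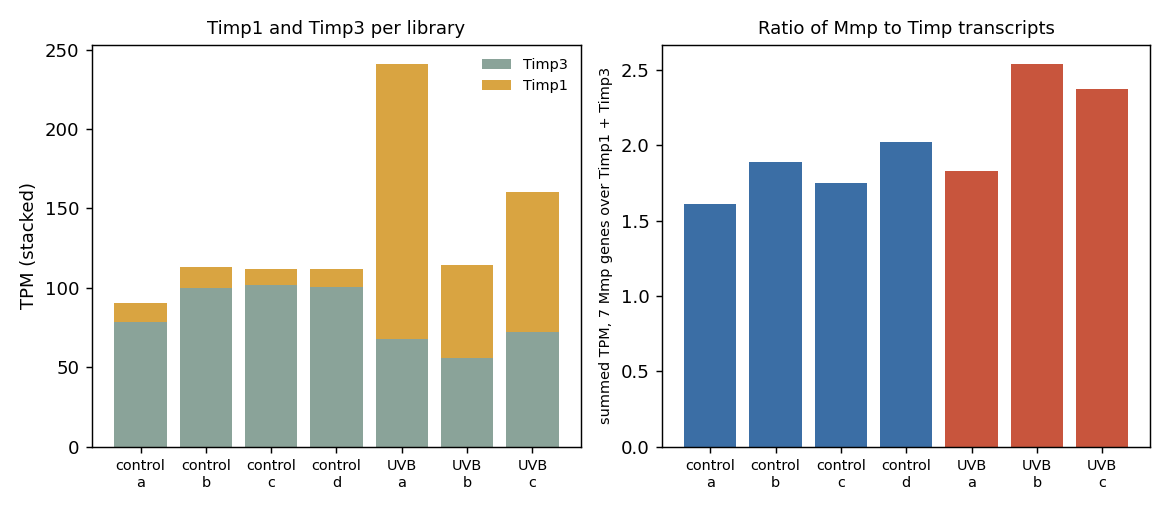
Left, stacked TPM of Timp3 (grey-green) and Timp1 (yellow) in each library; right, the summed TPM of the 7 MMP members divided by that of Timp1 and Timp3, for controls (blue) and UVB (red). Timp1 makes up at most 12.6% of the stack in a control and at least 51.1% after UVB, while the ratio on the right overlaps between the groups (1.61 to 2.02 against 1.83 to 2.54).

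The other family genes gave 2 calls among 9 tested, both higher (6.30% of all genes tested were higher), with a median log2 fold change of 0.064. Mmp28 (epilysin, known from keratinocytes) measured 5.09, 5.69, 7.38 and 9.57 CPM in the controls and 16.6, 11.4 and 17.3 CPM after UVB, for a log2 fold change of 1.11 with an SE of 0.23 (adjusted p = 0.0172, edgeR). Mmp19 measured 7.66, 11.1, 9.38 and 9.49 CPM in the controls and 16.1, 15.7 and 15.6 CPM after UVB, a log2 fold change of 0.75 (SE 0.13, adjusted p = 0.00784). The UVB libraries lay close together for Mmp19 and were above every control for both genes. In GRCr8 Mmp28, Mmp17 and Mmp24 overlap other genes, so their levels are uncertain where strand was not used.

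The remaining 7 of the 9 did not pass the threshold in edgeR. The membrane-type genes Mmp15 (log2 fold change -0.086, 95% interval -0.29 to 0.12), Mmp16 (0.28, -0.23 to 0.79), Mmp17 (-0.40, -0.77 to -0.027) and Mmp24 (-0.20, -0.42 to 0.016) had adjusted p-values from 0.143 to 0.570. Mmp23 was at 0.064 (adjusted p = 0.87), and its sign turned without control a (-0.0021) or UVB a (-0.13). Mmp27, in the chromosome 8 cluster, was at -0.70 (adjusted p = 0.113) and passed without UVB a (-0.99, adjusted p = 0.0484). Timp4, whose inhibitor is best known from the heart, was at 0.39 (95% interval -0.049 to 0.82, adjusted p = 0.217); it overlaps Syn2 in GRCr8, which had 123 to 284 counts per library against 101 to 229 for Timp4, so its level is uncertain. Mmp1, Mmp20 and Mmp21 had at most 1 count in any library, Mmp8 at most 8 and Mmp7 at most 11, so they were not tested; Mmp11 and Mmp25 were not analysed here.

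**Figure D4:**
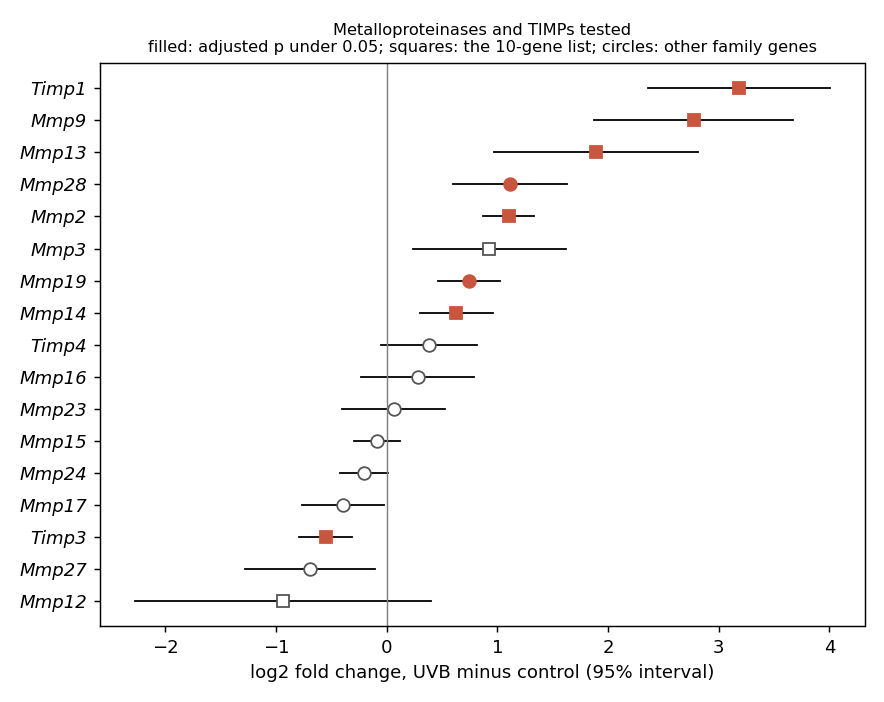
Log2 fold change (horizontal axis, UVB minus control) with 95% intervals for the 8 members tested (squares) and 9 other family genes (circles), filled where edgeR's adjusted p was under 0.05. Timp1 (3.18), Mmp9 (2.77) and Mmp13 (1.89) are farthest to the right, and Timp3 (-0.55) is the filled symbol left of 0.

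In the plasminogen system, whose product plasmin activates MMP proenzymes, 4 of 9 genes tested were higher and none lower (6.30% and 6.74% of all genes), with a median log2 fold change of 0.41. Those higher included Plaur (1.10, SE 0.23, edgeR adjusted p = 0.0169), the urokinase receptor, and Plat (0.85, SE 0.18, edgeR adjusted p = 0.02), tissue plasminogen activator. Plau, which encodes urokinase itself, was at 0.064 (95% interval -0.29 to 0.42, adjusted p = 0.824). The count was 2 without control c.

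Among other activators, inhibitors and partners, 5 of 22 were higher and 1 lower (6.30% and 6.74% of all genes), with a median of 0.29; without Lcn2, which passed the filter only through the UVB libraries, 4 of 21 were higher. Lcn2, which encodes a lipocalin that binds MMP9, averaged 7.36 ± 5.82 CPM after UVB (SD, n = 3) while no control exceeded 3 counts. That is at least 57.5-fold higher than a floor of 3 counts per library (edgeR adjusted p = 0.00517), or at least 32.9-fold without UVB a. Pcsk5, a proprotein convertase gene, had a log2 fold change of 1.75 (SE 0.26, adjusted p = 0.00605), and Cd44, whose product docks MMP9 at the cell surface, one of 0.68 (SE 0.11, adjusted p = 0.0071). The gene called lower was Pcsk6, also a proprotein convertase gene (-0.57, SE 0.14, edgeR adjusted p = 0.0309). Reck, a membrane-anchored MMP inhibitor, did not pass (0.26, 95% interval 0.018 to 0.50, adjusted p = 0.143), and neither did Furin, which activates MMP14 (0.24, 0.048 to 0.44, adjusted p = 0.0975).

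The ADAM and ADAMTS proteases, some of which TIMP3 inhibits, had 3 of 24 tested called, 2 higher and 1 lower, with a median of 0.22, a share near the 13.0% of all genes. DESeq2 called 6 of them, and 2451 genes in all. Adamts4, an aggrecanase gene, rose by for a log2 fold change of 1.48 with an SE of 0.25 (adjusted p = 0.00791, edgeR) and Adamts7 by 1.25 (SE 0.23, adjusted p = 0.0115), while Adamts17 fell by 1.16 (SE 0.27, adjusted p = 0.0247). Adam17 was at -0.028 (95% interval -0.20 to 0.14).

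Of the matrix substrates, 9 of 23 tested were higher and none lower (6.30% and 6.74% of all genes), with a median of 0.31. Those higher included the basement membrane chains Col4a1 (0.93, SE 0.10, edgeR adjusted p = 0.0023) and Col4a2 (0.80, SE 0.093, adjusted p = 0.00234), substrates of both gelatinases. Counts of Col4a1 and Col4a2 were not whole in any library and added up to a whole number in 7 of 7, so reads were divided between them. The fibrillar collagen genes Col1a1 (-0.48, 95% interval -1.08 to 0.12) and Col3a1 (0.019, -0.43 to 0.47) did not pass. The count of 9 rested on single libraries: it was 4 without control b or d and 3 without control c, UVB a or UVB c. It was 4 with library size alone as the scaling and 3 to 5 on log2 TPM.

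For the AP-1 and ETS factor genes, 3 of 11 tested were higher and 1 lower (6.30% and 6.74% of all genes), with a median of 0.30. Etv4 (0.68, SE 0.11, edgeR adjusted p = 0.00728), Fosl1 (0.84, SE 0.17, adjusted p = 0.0159) and Etv5 (0.56, SE 0.12, adjusted p = 0.0171) had the smallest p-values; counts of Fosl1 were not whole in any library, so its level is uncertain. The gene called lower was Elf3, an ETS factor gene (-0.52, SE 0.12, edgeR adjusted p = 0.0247). Fosl1 was the only AP-1 gene called. Fos (0.51, 95% interval -1.13 to 2.15) and Jun (-0.24, -0.52 to 0.044) did not pass. Neither did Fosb, Atf3 and Jund (-0.27, edgeR adjusted p = 0.0927). The count of 4 was 2 without control c, 7 without UVB a and 1 without UVB c.

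**Figure D5:**
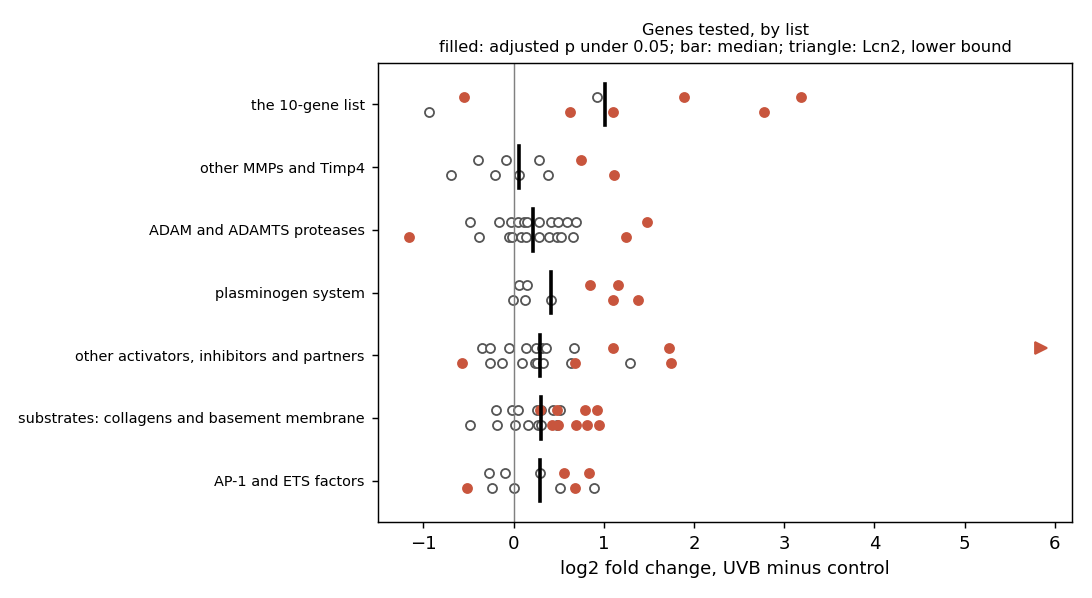
Log2 fold change (horizontal axis, UVB minus control) of each gene tested, by list, filled where edgeR's adjusted p was under 0.05, with the median as a black bar; the triangle is Lcn2, drawn at its lower bound. The medians are 1.01 for the members (0.93 without Mmp9) and 0.064 to 0.41 for the other lists. Members and lists were chosen with earlier results of these data known, so their medians only describe them.

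By the distance rule, Cenpe and Plk1 were among the genes whose profile over the 7 libraries lay nearest to that of Mmp2, of 11966 compared. Their root mean square differences from it in log2 CPM were 0.091 and 0.13. Each had a log2 fold change of 1.06. The rule picks genes by their nearness to Mmp2 in these libraries, so a value near that of Mmp2 follows from it.

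Some markers of other cell types were called higher beside the members, and their part in the results was not tested. The shares over all genes were 6.30% higher and 6.74% lower. Of 9 fibroblast markers tested, 5 were higher, with a summed level of 985 to 1511 TPM in the controls and 1300 to 2056 TPM after UVB, which overlap; Col1a1 (-0.48) and Fap (-0.41, adjusted p = 0.295) did not pass. Of 10 macrophage markers, 6 were higher (101 to 179 against 160 to 263 TPM, which overlap), Cd163 among them at a log2 fold change of 3.50, although Cd68 was at -0.41 (95% interval -0.84 to 0.019) and Csf1r at -0.0093 (-0.53 to 0.52). Neutrophil markers gave 2 of 3 tested higher (1579 to 1776 against 1841 to 2115 TPM), S100a9 and Csf3r, while S100a8, which held 1271 TPM or more of that sum in each library, did not pass (0.14, adjusted p = 0.244). Csf3r, tested only through the UVB libraries, had 2 to 7 counts in the controls and 24 to 80 after UVB, highest in UVB c as Mmp9 was, while the granule genes Elane, Ltf and Ngp had at most 3 counts in every library and Mpo at most 15. Fpr1, not tested, had 5, 12, 9 and 3 counts in the controls and 0, 1 and 4 after UVB. Mast cell markers gave 3 of 7 higher (21.6 to 30.0 against 39.7 to 49.5 TPM), endothelial markers 3 of 6 (116 to 123 against 159 to 174 TPM), T cell markers 2 of 5 (5.76 to 8.15 against 6.01 to 11.9 TPM, which overlap; 1 of the calls, Cd8a, was tested only through the UVB libraries) and keratinocyte markers 2 of 6 (10225 to 12839 against 12853 to 14958 TPM). Meibocyte markers, which define the labelled tissue, were present at 43581 to 52908 TPM in the controls and 40286 to 46949 TPM after UVB, with none of 9 higher and 2 lower. Skeletal muscle markers gave no call among 5 (1747 to 2496 against 1216 to 2130 TPM).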

How the data were processed

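RNA was sequenced from meibomian glands of control rats (4 libraries) and UVB rats (3 libraries). Deposited were expected counts, which are estimated, not normalised and not whole in 12.5% of cases, and the authors' TPM values, which correct for transcript length and depth. Unquoted commas in gene names shift some rows, so cells were taken by their distance from the row's end. Per the submitters' processing notes, FastQC, Trimmomatic, DRAGEN, Picard and the build rn7 were used; their roles, the annotation and the strand setting are not given in the sources used here. In each table, 5 rows lacked a value, leaving 17246 genes.

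Expected counts were rounded and tested with edgeR 4.0.16 (R 4.3.3): TMM factors, filterByExpr, robust quasi-likelihood test, two-sided, Benjamini-Hochberg adjusted over 13709 genes, threshold 0.05. The test was planned for counts and kept for rounded expected counts. SEs came from the F statistic (absolute log2 value over root F), and intervals are 95%. CPM use TMM-scaled library sizes. The other fits used limma-voom (limma 3.58.1), DESeq2 1.42.0, other scalings, filters, limma on log2 TPM with a pseudocount of 1 or 0.1, and each library left out. Fits with edgeR, DESeq2, limma-voom and limma on log2(TPM + 1) were also run on simulated whole counts, with the outcome not reported here. Such counts cannot check the rounding or the reads divided between genes. Members and lists were chosen with earlier results of these data known. Named genes were the 10 members, the other family genes tested, and the 3 called genes of smallest p in each further list. Plau, Pcsk6, Reck, Furin, Adam17, Col1a1, Col3a1, Fos, Jun, Fosb, Jund, Atf3, Elf3 and single markers were named beside them after their values were seen. For the called member of smallest p, the 3 nearest profiles were taken by the root mean square difference of log2(CPM + 0.1) from the control mean. Promoters came from the RefSeq table of GRCr8. A few genes that these rules name are not reported here.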

Additional observations from a re-analysis of the deposited data

Results flagged for a closer look

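Within the 4 controls, 20 values were examined for a lone library, and chance flags about 1 in 20; 2 were found. Control b held 13.63 CPM of Mmp12 where its group otherwise ran from 3.31 to 4.80 CPM, which put 0.856 of the range into the gap. Control a held 79.96 CPM of Timp3 where its group otherwise ran from 99.6 to 101.3 CPM, which put 0.919 of the range into the gap. Without control a the log2 fold change of Timp3 was -0.62 (edgeR adjusted p = 0.00545). The cause of neither gap was tested, and groups of 3 were not examined in this way.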

How the results depend on the processing

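No paired analysis was possible because no replicate number in the labels is found among the column names. The calls of Mmp2, Mmp9, Timp1 and Timp3 held in each alternative that gave them a value (13 for Mmp9, 16 for the others), those of Mmp13 in 13 of 16 and of Mmp14 in 11 of 16. The number of members called higher was 3 on log2(TPM + 1) with every gene above 0. With 1 library left out, it ran from 3 to 5, the genes that differ from 851 (without control c) to 1898 (without control a; 1787 with all, 1097 without control b, 943 without control d, 1047 without UVB b, 1168 without UVB c), the plasminogen system from 2 to 5, the substrates from 3 to 8 and the AP-1 and ETS factors from 1 to 7. On log2(TPM + 1) with every gene above 0, where the pseudocount shrinks low genes, the log2 difference was 0.85 for Mmp9 and 1.10 for Mmp13. DESeq2 called 6 ADAM and ADAMTS genes. Substrates called were 4 under library size alone, 5 on log2(TPM + 1) and 5 on log2(TPM + 0.1) with a mean TPM of at least 1, and 3 on log2(TPM + 1) with every gene above 0. The log2 fold change of Mmp23 ran from -0.13 (without UVB a) to 0.20 (without UVB c) and was -0.0021 without control a. The ratio of MMP to TIMP differed by 2.14 on CPM in place of TPM, with no overlap, since CPM weighs long transcripts more. The causes of the other shifts were not tested. Mmp10 and Mmp9, at few counts, are limited by depth.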
